A study of Mus musculus with 5 samples.

Results

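The 10 enzymes of glucose breakdown followed here through mouse kidney cells were Hk1, Gpi1, Aldoa, Tpi1, Gapdh, Pgk1, Pgam2 and Eno1, which carry glucose towards pyruvate, and Ldha and Ldhb, which interconvert pyruvate and lactate. They were chosen by symbol, every one was listed in each of the 5 deposited tables, and together they are 10 of 16934 gene symbols. The cells came from kidneys of wild-type mice, whose strain the labels give as C56BL/6N, and were profiled by Drop-seq, which tags each captured mRNA molecule with a unique molecular identifier (UMI) next to the 3′ end. Microdissected inner medulla, outer medulla and cortex gave 1 library each, and whole kidney gave 2 (whole kidney 2 and whole kidney 1). The labels state no age, no treatment and no number of animals, so p-values measure only the spread between these libraries, and the spread between libraries may be technical.

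In glycolysis, hexokinase traps glucose in the cell, aldolase splits the 6-carbon sugar, and glyceraldehyde-3-phosphate dehydrogenase, phosphoglycerate kinase, phosphoglycerate mutase and enolase act in turn on the products. Lactate dehydrogenase is a tetramer of A (muscle type, Ldha) and B (heart type, Ldhb) subunits. Tetramers rich in A are known from tissues that make lactate, and those rich in B from tissues that oxidise it. The proximal tubule is known for making glucose and burning fatty acids, and the poorly oxygenated inner medulla for its use of glycolysis.

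Barcodes with 200 or more detected genes were kept as cells. After removal of 22 marked doublets there were 894 cells of inner medulla, 2422 of outer medulla, 3070 of cortex, 3304 of whole kidney 2 and 2409 of whole kidney 1, at 517887 to 2882062 UMIs per library and a median of 440 to 516.5 UMIs per cell. No pair of libraries shared more than 1 barcode. Clusters were built without the 10 enzymes and 43 other pathway genes and were named from marker lists, so no enzyme helped to place a cell. The summed principal cell markers lay at 32325 to 53858 CPM (a gene's UMIs per 1000000 UMIs of the class in that library) in principal cell-like (PC-like) cells of the 5 libraries, against 129 to 457 CPM in proximal tubule-like (PT-like) cells. The water channel gene Aqp2 stood at 15552 CPM in PC-like cells of cortex, 23706 CPM in those of outer medulla and 22176 CPM in those of inner medulla. The water channel genes Aqp3 and Aqp4 differed more along the axis. In the same order, Aqp3 stood at 6119, 7058 and 1885 CPM and Aqp4 at 139, 1272 and 3575 CPM. Umod, which encodes the uromodulin of the thick ascending limb, stood at 12830, 10429 and 5762 CPM in thick ascending limb-like (TAL-like) cells of cortex, outer medulla and inner medulla. The other named classes were distal convoluted tubule-like (DCT-like), connecting tubule-like (CNT-like), intercalated cell-like (IC-like) and endothelial-like. Some of them carried markers of other classes at higher summed levels than their own. DCT-like cells had their own markers at 4447 to 6415 CPM, connecting tubule markers at 7192 to 10253 CPM and thick ascending limb markers at 6761 to 7873 CPM. Endothelial-like cells had endothelial markers at 14402 CPM in inner medulla and 5083 to 7332 CPM in the other 4 libraries, where their PT markers stood at 9851 to 12368 CPM. The part of this other RNA in the results on these classes was not tested, apart from an alternative with free RNA subtracted. A Bst1-led cluster with 128 cells of inner medulla and 30 of outer medulla, and an H2-Aa-led cluster with macrophage markers at 1336 to 3686 CPM, met too few markers and stayed unnamed. The inner medulla library also held 91 PT-like and 108 TAL-like cells. Whether these cells lay in inner medulla or came with neighbouring tissue at dissection was not tested. Their ratios therefore compare libraries, and may not compare places along a segment. CPM from 3′ UMIs do not grow with transcript length, so levels of different enzymes may be set side by side as molecules captured, with unknown differences in capture. Reads of Gapdh, Ldha, Eno1, Pgk1, Tpi1 and Aldoa can be split with processed pseudogenes, so their levels are less certain.

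The upstream windows of the lactate dehydrogenase genes are shown because the results turn on how these subunits differ between classes and regions. They were taken from RefSeq (build GRCm38.p6), 250 bases before a listed start and 5′ to 3′ on the gene's strand. Capitals mark ACGTG or GCGTG, the core letters of the hypoxia response element, read on both strands.
Ldha, chr7:46845554-46845803, plus strand: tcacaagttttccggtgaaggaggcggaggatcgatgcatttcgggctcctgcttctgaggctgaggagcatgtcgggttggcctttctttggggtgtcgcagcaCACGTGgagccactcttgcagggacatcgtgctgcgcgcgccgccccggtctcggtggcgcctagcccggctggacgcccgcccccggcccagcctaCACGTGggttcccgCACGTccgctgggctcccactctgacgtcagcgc
Ldhb, chr6:142507958-142508207, minus strand: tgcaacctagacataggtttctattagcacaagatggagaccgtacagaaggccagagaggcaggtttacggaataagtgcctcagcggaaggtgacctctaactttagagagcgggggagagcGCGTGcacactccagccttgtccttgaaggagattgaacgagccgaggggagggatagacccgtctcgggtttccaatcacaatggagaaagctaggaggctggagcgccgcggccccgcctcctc
The Ldha window held 5 matches, in which each CACGTG counts on both strands. The bases just after that window were found in no GENCODE transcript of the gene. Those after the window of a further Ldha start (chr7:46846832-46847081) were, and that window held 1 match. The Ldhb window, whose following bases were also found in a transcript, held 1 match. Some listed window held either motif in 7 of the 10 genes, against 41.5% of 27025 genes (18.5% for ACGTG and 30.9% for GCGTG). Pgk1 had 2 ACGTG, 2 overlapping Aldoa windows had 1 ACGTG each and Gapdh had 2 GCGTG, whereas Tpi1, Gpi1 and Pgam2 had neither. These matches describe the letters only, and no binding was measured.

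Ldhb, the B subunit, was the most abundant of the 10 enzymes, with 14721 UMIs over all cells against 3912 for Ldha. It was highest in the distal nephron. In DCT-like cells, which reabsorb salt, it stood at 3558 CPM in cortex, 3724 CPM in outer medulla, 3788 CPM in whole kidney 2 and 3784 CPM in whole kidney 1. In PT-like cells it stood at 1306 CPM in cortex, 1313 CPM in outer medulla, 877 CPM in inner medulla, 1439 CPM in whole kidney 2 and 1255 CPM in whole kidney 1. The DCT-like values lay above every PT-like value. TAL-like cells, which dilute the tubular fluid, had 2616, 2699 and 2925 CPM in cortex, outer medulla and inner medulla, and 2807 and 3209 CPM in whole kidney 2 and whole kidney 1, also without overlap with PT-like cells. IC-like cells, which handle acid and base, ranged over 2318 to 4048 CPM and CNT-like cells over 2452 to 2842 CPM. Ordered by mean, Ldhb ran from DCT-like through IC-like, TAL-like, CNT-like, PC-like, H2-Aa-led, PT-like and endothelial-like to Bst1-led cells, and each neighbouring pair overlapped in range.

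Ldha, the A subunit, had another order. It averaged 509 ± 138 CPM in PC-like cells (SD, n = 5 libraries), 207 ± 70.1 CPM in TAL-like cells (n = 5), 154 ± 68.2 CPM in DCT-like cells (n = 4) and 423 ± 22.8 CPM in PT-like cells (n = 5). TAL-like cells ranged from 152 to 323 CPM and DCT-like cells from 93.6 to 252 CPM, all below the lowest PT-like value of 397 CPM. Over the 40 sums of a class in a library, log2 levels of Ldha and Ldhb had a Pearson correlation of -0.65, a description of sums that share libraries and depth.

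**Figure D1:**
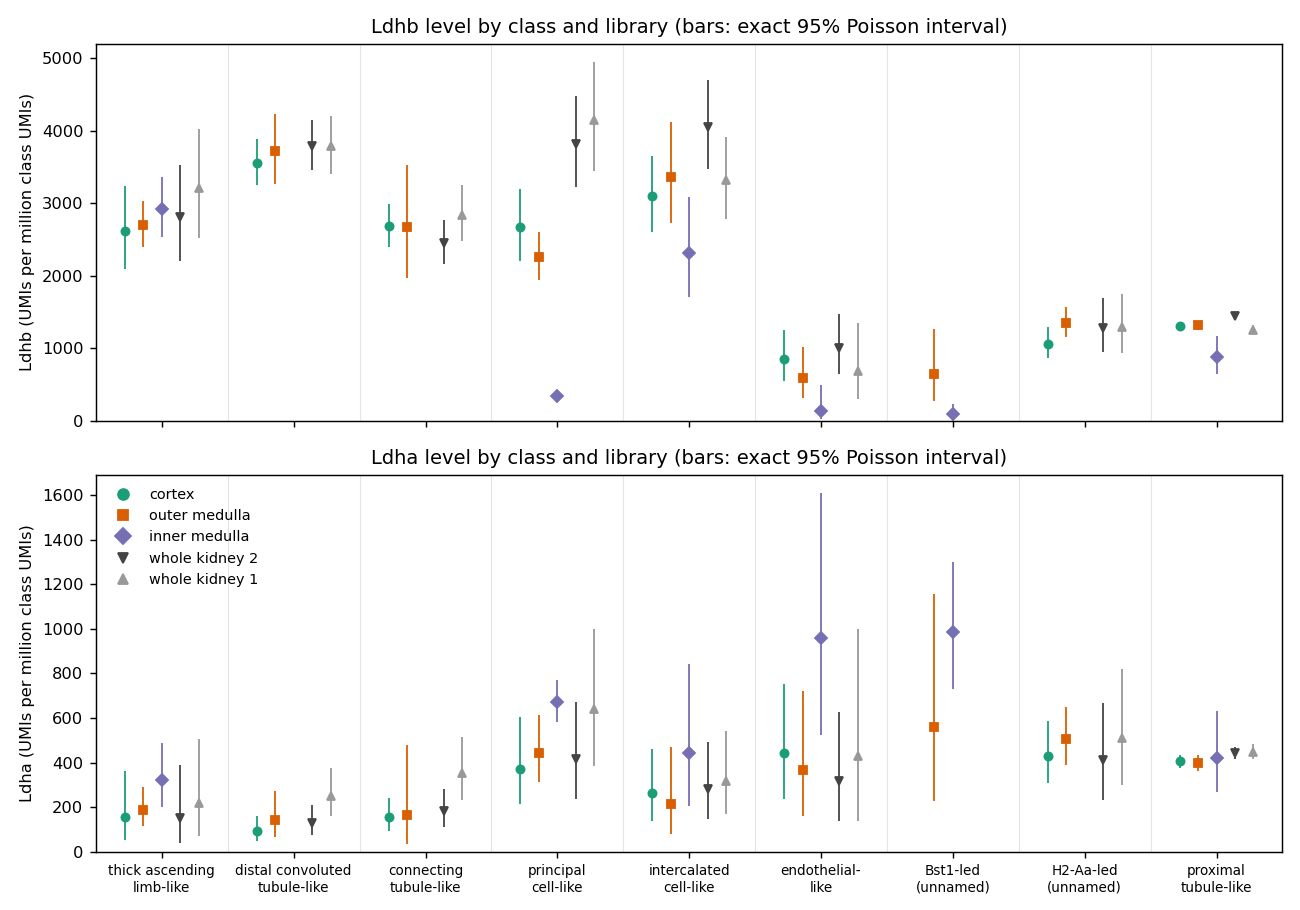
Ldhb (top) and Ldha (bottom) in CPM by class and library, with exact 95% Poisson intervals as bars; the PT-like class is at the right. Ldhb of PC-like cells is at 337 CPM in inner medulla and at 2257 to 4147 CPM in the other libraries, while their Ldha reaches 673 CPM in inner medulla.

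The classes were tested against PT-like cells with edgeR's quasi-likelihood test on UMI sums per class and library, with library as a block and Benjamini-Hochberg adjustment over all 2430 genes tested. Hk1 was too sparse for this test (129 UMIs over all cells), so 9 of the 10 enzymes were tested. Ldhb was higher in TAL-like cells by 1.05 ± 0.26 on the log2 scale (SE, adjusted p = 0.0009), in DCT-like cells by 1.22 ± 0.27 (adjusted p = 0.00015) and in IC-like cells by 1.10 ± 0.26 (adjusted p = 0.00046), each above PT-like cells in every library with both classes. Ldha was lower than in PT-like cells by edgeR in TAL-like cells (log2 change -1.35 ± 0.22, adjusted p = 1.5e-06), DCT-like cells (-1.67 ± 0.21, adjusted p = 2.9e-09), CNT-like cells (-1.07 ± 0.22, adjusted p = 4.8e-05) and IC-like cells (-0.86 ± 0.22, adjusted p = 0.0010). In TAL-like cells both calls were lost among cells with at least 500 genes (adjusted p = 0.30 for Ldhb and 0.17 for Ldha), the Ldha call of IC-like cells was lost there (0.11) and with total-count scaling (0.054), and their Ldhb call without a filter on low genes (0.094). PC-like cells did not pass the test for Ldha (-0.09 ± 0.18, edgeR adjusted p = 0.70). Their Ldhb was called higher by 0.64 ± 0.26 (edgeR adjusted p = 0.033), but the call was lost without the cortex library (adjusted p = 0.12), the outer medulla library (0.17), whole kidney 2 (0.19) or whole kidney 1 (0.34), with DESeq2 (0.064), with no filter on low genes (0.87) and with free RNA subtracted (0.13). Without inner medulla the change was 0.84 on the log2 scale (adjusted p = 7.4e-07). CNT-like cells were called higher in Ldhb by 0.81 ± 0.27 (edgeR adjusted p = 0.015), a call lost when any library with such cells was left out (adjusted p = 0.0505 to 0.147), without the filter on low genes (0.23) and with cells named one by one from their marker score (0.28). Endothelial-like and Bst1-led cells were lower in Ldhb, by log2 changes of -1.28 ± 0.32 (edgeR adjusted p = 0.00094) and -2.33 ± 0.55 (0.00083); the endothelial-like call was lost with total-count scaling (0.055) and by marker score (0.21).

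Ldha made up a small share of the lactate dehydrogenase UMIs in the distal nephron and a larger one in PT-like cells. The share of TAL-like cells was 5.62% in cortex (1.85 to 12.6), 6.51% for outer medulla (4.02 to 9.88) and 9.95% for inner medulla (6.34 to 14.7), with exact 95% Clopper-Pearson intervals that cover counting error only. In whole kidney 2 and whole kidney 1 it was 5.13% and 6.33%. DCT-like cells ranged from 2.56% to 6.23%, CNT-like cells from 5.44% to 11.1% and IC-like cells from 6.0% to 16.1%. PT-like cells had 23.7% in cortex (22.3 to 25.1), 23.2% for outer medulla (21.5 to 25.1), 32.4% for inner medulla (21.8 to 44.5), 23.6% in whole kidney 2 and 26.3% in whole kidney 1. None of the TAL-like, DCT-like, CNT-like or IC-like values overlapped the PT-like values.

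Within a library, log2 of Ldha over Ldhb differed between TAL-like and PT-like cells by a mean of -2.21 ± 0.11 (SD, n = 5), lower in 5 of 5 libraries. The exact two-sided sign-flip permutation test gave p = 0.063, the smallest that 5 libraries allow, and 0.146 after adjustment over the 7 classes compared. IC-like cells were lower in 5 of 5 libraries (-1.84 ± 0.34, exact p = 0.063), DCT-like cells in 4 of 4 (-2.99 ± 0.47) and CNT-like cells in 4 of 4 (-2.01 ± 0.37), where 4 libraries cannot go below an exact p of 0.125. Endothelial-like cells, which line the vessels, were higher in 5 of 5 libraries (1.27 ± 1.34, exact p = 0.063), with shares of 24.2% to 38.5% in 4 libraries and 87.5% (61.7 to 98.4) in inner medulla, from 14 Ldha and 2 Ldhb UMIs. Their free RNA, read from PT markers against barcodes with under 100 genes, was estimated at 51.5% to 70.3% of UMIs outside inner medulla and at 2.12% within it. That estimate reads PT markers alone: principal cell markers stood at 4321 CPM in endothelial-like cells of inner medulla and at 120 to 916 CPM in those of the other libraries, and Aqp2 at 2263 CPM against 0 to 366 CPM. Ldhb stood at 997 CPM or below in endothelial-like cells, and at 1538.5 to 1699 CPM in barcodes with under 100 genes outside inner medulla. Free RNA was subtracted as an alternative, under which the mean difference kept its direction. That alternative rests on PT markers and cannot settle the part of either in the difference, which was not otherwise tested. H2-Aa-led cells, which carry PT markers at 19199 to 22106 CPM, had shares of 24.2% to 28.9%, inside the PT-like range, and within a library their log2 ratio was higher than in PT-like cells in 4 of 4 libraries (0.24 ± 0.14, exact p = 0.125, the smallest that 4 libraries allow). PC-like cells were lower in 4 of 5 libraries and higher in inner medulla (-0.47 ± 1.44, exact permutation p = 0.5).

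**Figure D2:**
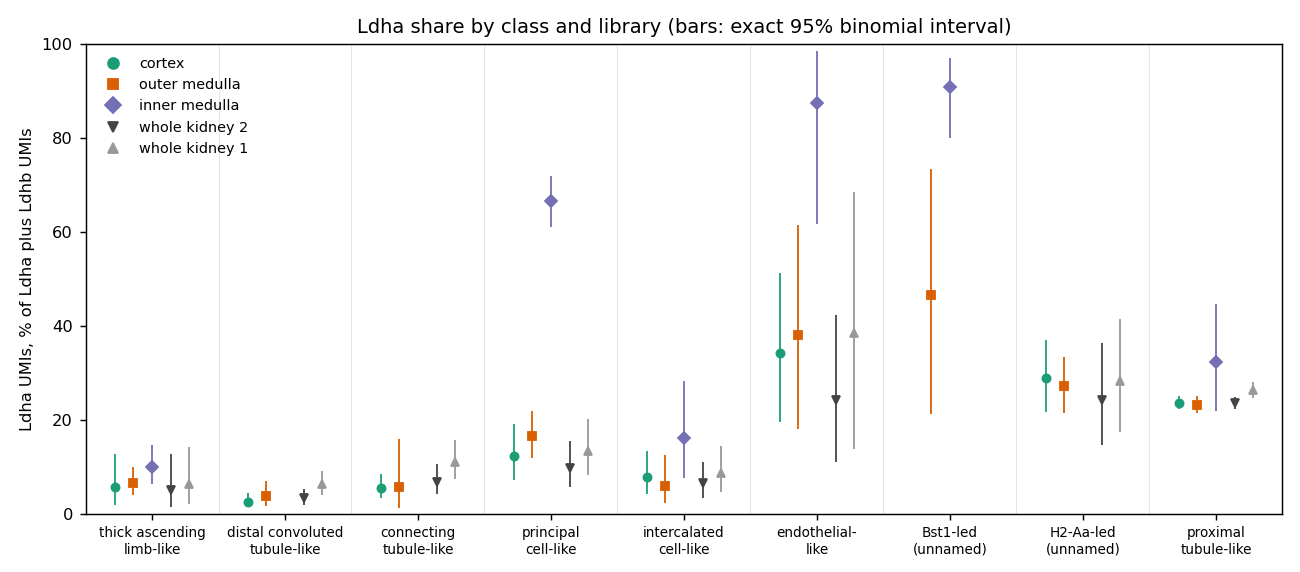
Ldha UMIs as a percentage of Ldha plus Ldhb UMIs by class and library, with exact 95% binomial intervals as bars. TAL-like, DCT-like and CNT-like cells sit at 2.56% to 11.1%, PT-like cells at 23.2% to 32.4%, and inner medulla stands apart in PC-like cells (66.7%), endothelial-like cells (87.5%) and Bst1-led cells (90.9%).

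PC-like cells, which adjust water and salt in the collecting duct, differed along the axis in both subunits. Ldhb stood at 2665 CPM in cortex (115 UMIs), 2257 CPM in outer medulla (188 UMIs) and 337 CPM in inner medulla (102 UMIs), with 3811 CPM in whole kidney 2 and 4147 CPM in whole kidney 1. Inner medulla lay below the other 4 libraries, which were all above 2000 CPM. The fold of inner medulla over cortex was 0.126 (0.0958 to 0.166), and that of inner medulla over outer medulla 0.149 (0.116 to 0.191), with exact conditional 95% intervals. Whole kidney 2 over whole kidney 1 gave 0.919 (0.718 to 1.18), which gives the spread between like libraries; of 4 readable enzymes there, 1 had an interval above equality and 0 below, against 5.33% and 4.06% of genes. With 1 library per region there is no replicate check, no test was run, and the intervals cover counting error only.

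Ldha of PC-like cells went the other way. It stood at 371 CPM in cortex (16 UMIs), 444 CPM in outer medulla (37 UMIs) and 673 CPM in inner medulla (204 UMIs), and at 415 CPM in whole kidney 2 and 641 CPM in whole kidney 1. The fold of inner medulla over cortex was 1.82 (1.09 to 3.24), but whole kidney 1 lay close to inner medulla, and whole kidney 2 over whole kidney 1 was 0.647 (0.311 to 1.33). The interval of the inner medulla fold included equality once high doublet scores were removed (log2 ratio 0.66, against 0.84 before). The Ldha share of PC-like cells was 12.2% in cortex (7.15 to 19.1), 16.4% for outer medulla (11.9 to 21.9) and 66.7% for inner medulla (61.1 to 71.9), against 9.82% and 13.4% in whole kidney 2 and whole kidney 1. As a ratio of Ldha to Ldhb, inner medulla stood at 2.0 (1.57 to 2.56) and the other 4 libraries at 0.109 to 0.197. Both subunits together came to 1010 CPM in inner medulla and to 2701 to 4788 CPM in the other libraries.

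Different clusters held the PC-like cells of the regions. Of 480 PC-like cells of inner medulla, 440 lay in a cluster led by Aldh1a3 and Aqp4, and all 58 of cortex lay in one led by Hsd11b2 and Aqp3. The 440 cells had 294 CPM of Ldhb, 683 CPM of Ldha and a share of 69.9% (64.1 to 75.2). The other 40 cells of inner medulla, in the cluster of the cortex cells, had 1043 CPM of Ldhb (18 UMIs), 522 CPM of Ldha (9 UMIs) and a share of 33.3% (16.5 to 54.0). That sum held 17251 UMIs, fewer than the 20000 asked of the other regional ratios. Within that cluster alone, the log2 ratio of Ldhb in inner medulla over cortex, on CPM plus 10, was -1.34, against -2.95 over both clusters. Enzymes were read there only if readable over both clusters, with at least 30 UMIs over both sums and 100 CPM in one. Of these, Ldhb alone had an interval off equality: Ldha was at a log2 ratio of 0.48, Aldoa at -0.57 and Tpi1 at -0.30. Pgam2, too sparse to be among them, had 0 UMIs in inner medulla and 17 UMIs in cortex within that cluster. The estimated free RNA of PC-like cells moved with region as well, at 18.2% in cortex, 14.1% in outer medulla and 4.19% in inner medulla, and after its subtraction the log2 ratio of Ldhb was -3.15. Barcodes with under 100 genes had an Ldha share of 40.3% in inner medulla and 18.7% in cortex, so the PC-like share lay above that background in inner medulla and below it in cortex.

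Among the other enzymes of PC-like cells, the aldolase Aldoa and the triose phosphate isomerase Tpi1 were lower in inner medulla. Aldoa stood at 1646, 1428 and 977 CPM in cortex, outer medulla and inner medulla, a fold of 0.594 (0.457 to 0.781) over cortex. Whole kidney 2 over whole kidney 1 differed by a similar size, at 1.63 (1.06 to 2.55), and the Aldoa log2 ratio of -0.75 shrank to -0.09 among cells with at least 500 genes. Under that filter the 53 PC-like cells of cortex lay in a cluster led by Hsd11b2, S100g and Klk1b5. It had 3 markers of other classes among its leading genes, so the 500-gene value compares a different mix of cells. Tpi1 stood at 788, 684 and 324 CPM, a fold of 0.411 (0.275 to 0.626). Gapdh, Pgk1, Gpi1 and Eno1 had folds of 0.570 to 1.31 whose intervals included equality. An interval was counted only for enzymes with at least 30 UMIs over both sums and 100 CPM in one of them. Of 8 such enzymes, 3 had the interval below equality and 1 above, where 10.8% and 17.0% of all 2335 genes compared did. Pgam2 had too few UMIs to enter this count, and its ratio is given further below. Between outer medulla and cortex none of 6 readable enzymes had an interval off equality, against 7.2% of genes above and 10.2% below. In inner medulla over outer medulla 2 of 8 lay above (Ldha at 1.52 and Gapdh at 2.05) and 3 below, where 18.6% and 13.7% of genes did.

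**Figure D3:**
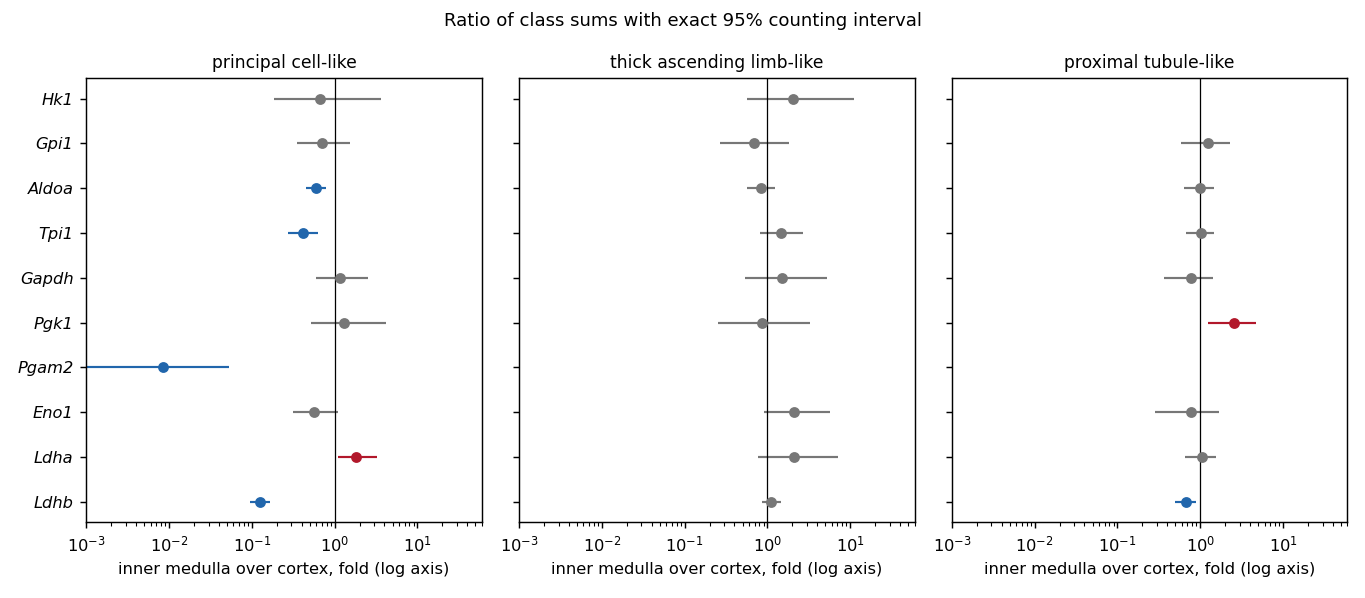
Fold of inner medulla over cortex for the 10 enzymes in PC-like, TAL-like and PT-like cells on a log axis, with exact 95% counting intervals; red lies above equality, blue below, grey includes it. In PC-like cells Ldhb is at 0.126 and Ldha at 1.82, while Ldhb of TAL-like cells is at 1.12; pairs with a count of 0 are not drawn, and the lower bar of Pgam2 in PC-like cells runs past the axis.

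In TAL-like cells, Ldhb in inner medulla over cortex was 1.12-fold (0.862 to 1.46) and in outer medulla over cortex 1.03-fold (0.806 to 1.33), and Ldha, from 22 and 5 UMIs, had 323 CPM in inner medulla and 156 CPM in cortex. Of 4 readable enzymes none had an interval off equality in inner medulla over cortex, where 16.0% of genes lay above and 9.06% below. In outer medulla over cortex none of 5 did, against 6.66% above and 6.29% below. The Ldhb interval of TAL-like cells lay wholly above that of PC-like cells. Eno1, the enolase, was higher in inner medulla than in outer medulla, at 456 against 216 CPM (2.11-fold, 1.19 to 3.78, from 31 and 23 UMIs), the 1 of 7 readable enzymes off equality in a comparison with 14.8% of genes above and 9.96% below. IC-like cells had 2318 CPM of Ldhb in inner medulla, 3366 CPM in outer medulla and 3097 CPM in cortex, a fold of 0.688 (0.474 to 0.987) over outer medulla and 0.748 (0.526 to 1.05) over cortex. Their Aldoa was higher in inner medulla, 1.61-fold over outer medulla (1.005 to 2.58) and 1.52-fold over cortex (1.003 to 2.29). Of 3 readable enzymes, 1 lay above and 1 below equality over outer medulla (10.9% and 13.7% of genes), and 1 above and 0 below over cortex (9.16% and 15.8%).

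PT-like cells of the inner medulla library were few (91 cells), and whether they lay in inner medulla was not tested. Their Ldhb was 0.671-fold that of cortex (0.494 to 0.893), and their Pgk1, from 11 UMIs, was 2.53-fold (1.24 to 4.65), where 7.39% of genes lay below and 12.7% above, with 1 of 8 enzymes on each side. The call on Pgk1 was lost with TMM scaling, and the Ldhb ratio turned to 0.078 on the log2 scale when cells were named one by one from their marker score. In outer medulla over cortex, Gpi1 was at 0.812-fold (0.664 to 0.990), Gapdh at 0.657-fold (0.554 to 0.776) and Eno1 at 0.620-fold (0.493 to 0.773), 3 of 7 readable enzymes below equality and 0 above, against 18.3% and 16.2% of genes. Whole kidney 2 over whole kidney 1 put 18.1% of genes above and 19.5% below equality in PT-like cells, with Ldhb (1.15, 1.08 to 1.21) the 1 of 8 enzymes off it; the fold was 0.951 (0.852 to 1.06) for Gapdh and 0.903 (0.775 to 1.05) for Eno1. Gapdh, the dehydrogenase often used as a reference gene, stood at 237 CPM in PT-like cells of cortex, 156 CPM in outer medulla, 183 CPM in inner medulla, 342 CPM in whole kidney 2 and 359 CPM in whole kidney 1. Ldha and Ldhb were at 0.981 (0.877 to 1.10) and 1.01 (0.945 to 1.07) in outer medulla over cortex.

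Over all cells of a library, where the mix of classes moves every level, Ldhb stood at 1544, 1559 and 805 CPM in cortex, outer medulla and inner medulla, and Ldha at 369, 379 and 624 CPM. The Ldha share was 19.3%, 19.6% and 43.6%, against 20.01% in whole kidney 2 and 21.6% in whole kidney 1. Of 9 readable enzymes, 4 had an interval above equality in inner medulla over cortex (Aldoa, Pgk1, Eno1 and Ldha) and 3 below (Tpi1, Pgam2 and Ldhb), in a comparison where 51.1% and 30.0% of genes did. With TMM scaling all log2 ratios of that comparison fell by 0.63, and the counts became 0 above and 5 below.

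Pgam2, the muscle form of phosphoglycerate mutase, was highest in the late distal nephron. In CNT-like cells, which fine-tune calcium and salt, it stood at 1519 CPM in cortex, 1795 CPM in outer medulla, 1226 CPM in whole kidney 2 and 1441 CPM in whole kidney 1. DCT-like cells had 1433, 1316, 1438 and 1122 CPM in the same libraries. PT-like cells had 13.8 CPM in cortex, 4.69 CPM in outer medulla, 0 CPM in inner medulla, 10.2 CPM in whole kidney 2 and 9.96 CPM in whole kidney 1, with no overlap. The log2 change over PT-like cells was 6.99 ± 0.26 in CNT-like cells (edgeR adjusted p = 1.3e-27) and 6.79 ± 0.26 in DCT-like cells (edgeR adjusted p = 6.0e-27), which is 127-fold and 110-fold. TAL-like cells, upstream of these segments, had 0, 9.4 and 0 CPM in cortex, outer medulla and inner medulla and 114 and 43.4 CPM in whole kidney 2 and whole kidney 1, from 0 to 3 UMIs a library, and did not pass the test (log2 change 1.19 ± 0.77, edgeR adjusted p = 0.23); they passed by marker score (4.38, adjusted p = 1.5e-14) and with free RNA subtracted (4.67, 0.0043). Pgam1, the form of most tissues, reached a mean of 58.4 CPM at most in any class. It had 198 UMIs over all cells and was not tested.

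In PC-like cells Pgam2 stood at 394 CPM in cortex (17 UMIs), 228 CPM in outer medulla (19 UMIs), 3.3 CPM in inner medulla (1 UMI), 493 CPM in whole kidney 2 (19 UMIs) and 202 CPM in whole kidney 1 (6 UMIs). Over PT-like cells the log2 change was 4.65 ± 0.34 (edgeR adjusted p = 1.3e-16). Inner medulla over cortex gave a ratio of 0.00838 (0.00020 to 0.0535). Barcodes with under 100 genes had 190 CPM in cortex, 132 CPM in outer medulla, 6.19 CPM in inner medulla, 197 CPM in whole kidney 2 and 177 CPM in whole kidney 1, so the background was lowest where the PC-like level was. The summed connecting tubule markers of PC-like cells differed along the axis too, at 3986 CPM in cortex, 960 CPM in outer medulla and 277 CPM in inner medulla, with 2074 CPM in whole kidney 2 and 3844 CPM in whole kidney 1, and their part in the Pgam2 difference was not tested. The same sum was at 110853 to 153603 CPM in CNT-like cells. IC-like cells had 49 to 215 CPM of Pgam2, close to the level in barcodes with under 100 genes. Their call (log2 change 3.88 ± 0.43, edgeR adjusted p = 1.2e-10) is read no further. The PC-like level of whole kidney 1 (202 CPM against 177 CPM) was also close to that background. The part of background in the PC-like call was not tested, apart from the alternative with free RNA subtracted.

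**Figure D4:**
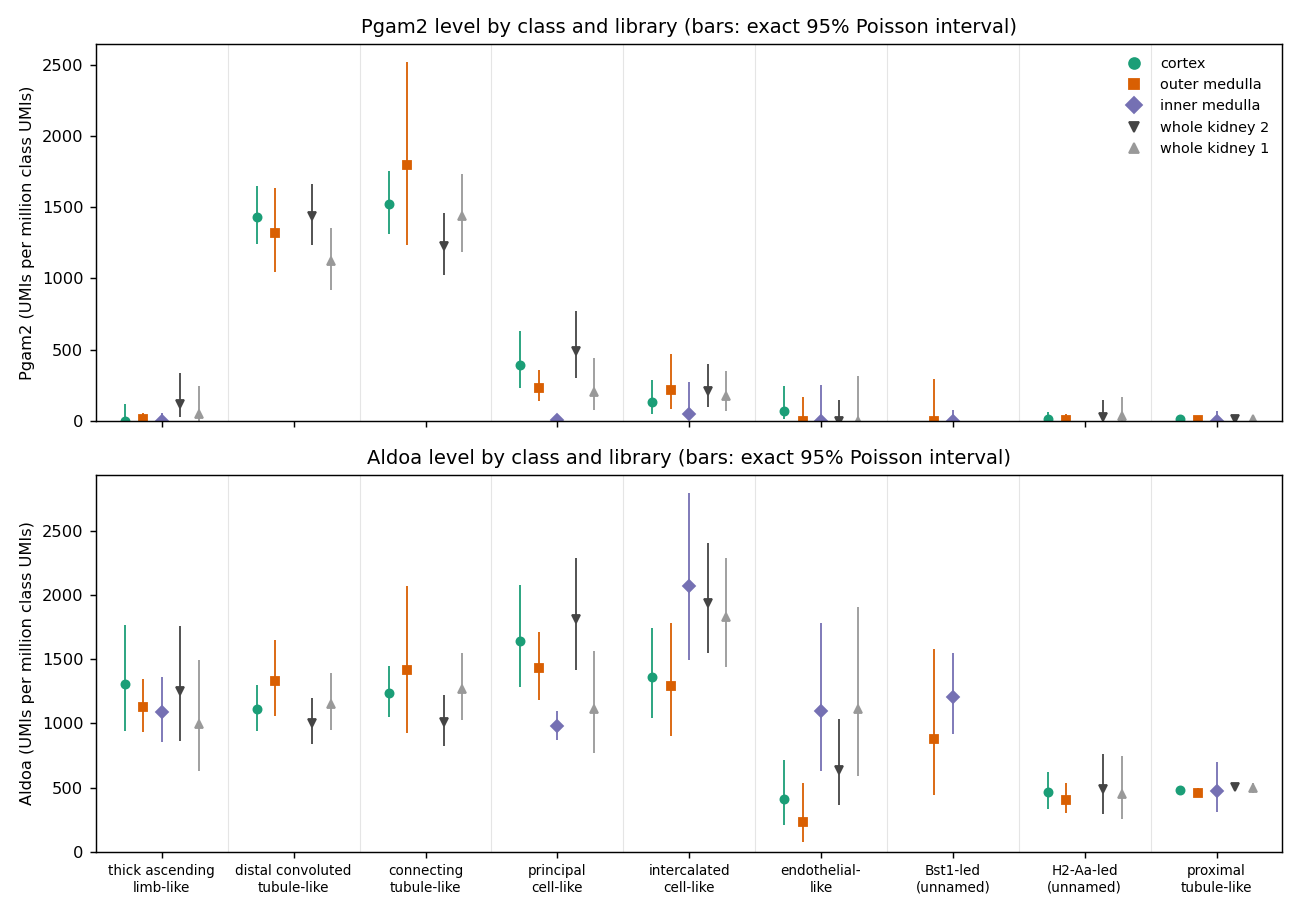
Pgam2 (top) and Aldoa (bottom) in CPM by class and library, with exact 95% Poisson intervals as bars. Pgam2 reaches 1122 to 1795 CPM in DCT-like and CNT-like cells and at most 13.8 CPM in PT-like cells; Aldoa is at 459 to 505 CPM in PT-like cells and at 977 to 2071 CPM in the other named tubular classes.

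Aldoa, the aldolase of most tissues, was higher than in PT-like cells in all 5 other tubular classes. It averaged 1698 ± 352 CPM in IC-like cells, 1396 ± 352 CPM in PC-like cells, 1155 ± 125 CPM in TAL-like cells and 483 ± 17.8 CPM in PT-like cells (SD, n = 5 libraries each), and 1232 ± 168 CPM in CNT-like and 1150 ± 136 CPM in DCT-like cells (n = 4 each). No value of these classes fell as low as the highest PT-like value of 505 CPM. The log2 changes ran from 0.98 ± 0.20 in TAL-like cells (edgeR adjusted p = 7.9e-05) to 1.25 ± 0.20 in PC-like (3.4e-07) and a 2.83-fold level in IC-like cells (1.5e-08). The call held in every alternative except in TAL-like cells, where it was lost among cells with at least 500 genes (0.32) and without the filter on low genes (0.11). Eno1 was called higher in TAL-like (0.86 ± 0.25), DCT-like (0.85 ± 0.21), CNT-like (0.77 ± 0.23), PC-like (0.58 ± 0.24) and Bst1-led cells (1.24 ± 0.42), with edgeR adjusted p-values of 0.00071 to 0.036. The adjusted p stayed under 0.05 in 13 of 14 alternatives in DCT-like cells, 10 of 13 in CNT-like cells, 8 of 14 in TAL-like cells, 7 of 14 in PC-like cells and 6 of 12 in Bst1-led cells. Leaving out outer medulla or inner medulla ended the call in TAL-like and Bst1-led cells, leaving out whole kidney 2 or whole kidney 1 in CNT-like cells, and leaving out any library but inner medulla in PC-like cells. Hk1, the hexokinase, was sparse, with 75 to 191 CPM in TAL-like cells (2 to 13 UMIs a library) and 0 to 1 CPM in PT-like cells (0 to 2 UMIs).

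Counts of called enzymes are set beside the share of all genes called the same way. In TAL-like cells 3 of 9 enzymes were higher and 1 lower, where 19.1% and 19.8% of all genes were. In DCT-like cells 4 were higher and 1 lower (24.9% and 22.6% of genes), in CNT-like cells 5 and 1 (18.5% and 19.6%), in PC-like cells 4 and 0 (29.8% and 24.7%) and in IC-like cells 3 and 1 (21.3% and 21.1%). Endothelial-like cells had 0 higher and 3 lower (19.3% and 26.6% of genes), which were Ldhb, Gapdh (-1.02 ± 0.38, adjusted p = 0.026, kept in 7 of 13 alternatives and lost without whole kidney 2 or whole kidney 1) and Tpi1 (-1.43 ± 0.32, adjusted p = 0.00028). Bst1-led cells had 1 higher and 1 lower (13.6% and 17.4%), and H2-Aa-led cells 0 and 0 (3.13% and 0.7%), by edgeR at an adjusted p under 0.05. The median log2 change of the 9 enzymes ran from 0.42 in DCT-like to 0.67 in CNT-like cells over the 5 named tubular classes, where the median over all genes ran from -0.03 to 0.11. It was -0.77 in endothelial-like cells (all genes -0.245), 0.26 in Bst1-led cells (-0.09) and 0.05 in H2-Aa-led cells (-0.14). Gpi1, Pgk1, Tpi1 and Gapdh did not pass in any named tubular class, except Gpi1 in CNT-like cells (0.67 ± 0.24, edgeR adjusted p = 0.024, kept in 7 of 13 alternatives and lost without cortex, outer medulla or whole kidney 2).

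**Figure D5:**
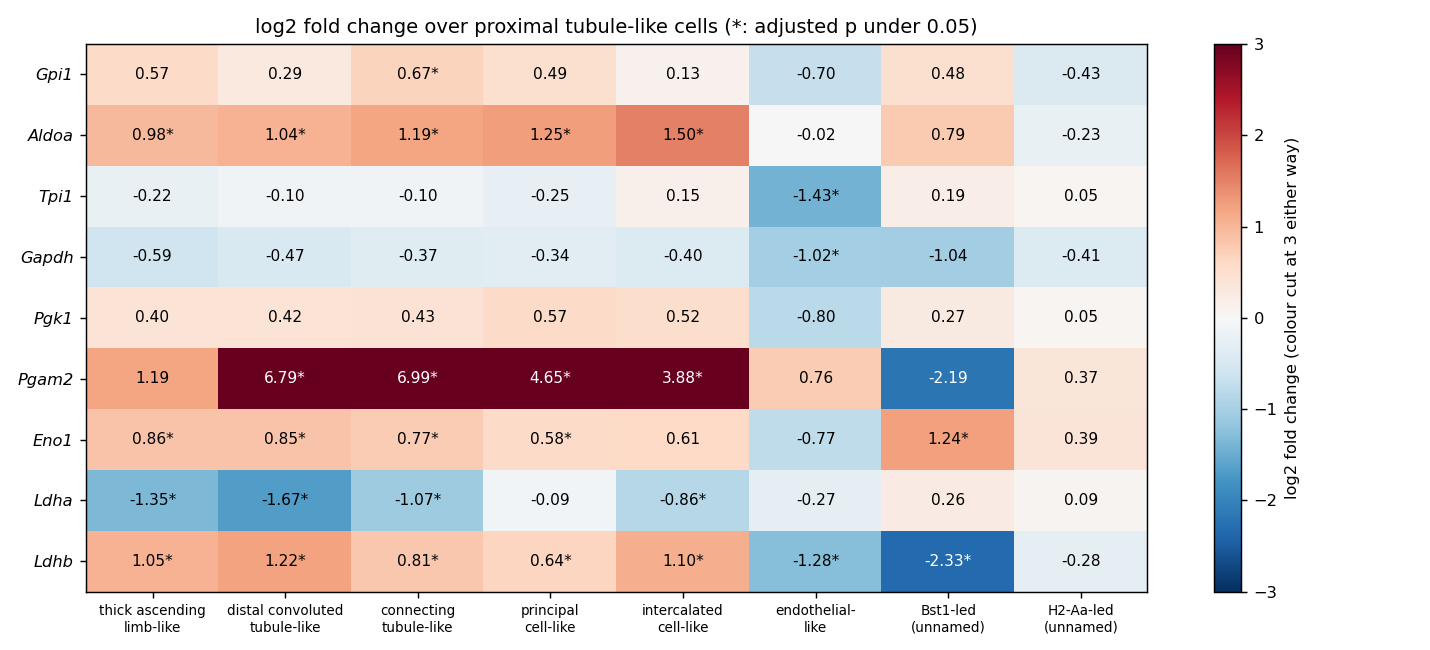
Log2 fold change over PT-like cells for the 9 enzymes tested (rows) in 8 classes (columns), with the value in each cell and an asterisk where edgeR's adjusted p is under 0.05. Ldhb is positive and Ldha negative in TAL-like, DCT-like, CNT-like and IC-like cells; the Pgam2 value of Bst1-led cells (-2.19) rests on 0 UMIs there and is a fitted value, not a bound.

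The unnamed Bst1-led cluster had the highest mean Ldha of the classes with more than 1 library, but its range overlapped that of PC-like cells, and Ldha did not pass the test against PT-like cells (0.26 ± 0.29, edgeR adjusted p = 0.56). Ldha stood at 987 CPM in inner medulla (50 UMIs) and 561 CPM in outer medulla (7 UMIs), and Ldhb at 99 CPM (5 UMIs) and 642 CPM (8 UMIs). The Ldha share was 90.9% in inner medulla (80.0 to 97.0) and 46.7% in outer medulla (21.3 to 73.4). Its summed thin limb markers were at 3216 to 3529 CPM, but 2 of them were detected in enough cells to count towards a name, where 3 were needed. In PC-like cells the same marker sum was at most 236 CPM. Its principal cell markers stood at 1815 CPM in inner medulla and 401 CPM in outer medulla, its connecting tubule markers at 197 and 4011 CPM and its PT markers at 217 and 2326 CPM in the same order, and their part in the Ldha and Ldhb values was not tested.

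The other pathway genes set the enzymes in context. Of 43 listed genes, 26 reached 100 CPM in some class of a library, and 14 of these were tested. The 12 untested ones (Aldoc, Bpgm, Pcx, Pdk1, Pdk2, Pdk3, Pdk4, Pfkfb2, Pfkl, Pfkm, Pfkp and Pgam1) had highest levels of 105 to 274 CPM. Pkm, which encodes the pyruvate kinase of most tissues and was listed with the other glycolytic isoforms, was higher than in PT-like cells in 7 of 8 classes, with 723 CPM in DCT-like cells, 441 CPM in IC-like cells, 386 CPM in PC-like cells, 275 CPM in TAL-like cells and 5.37 CPM in PT-like cells on average. Its log2 changes in the named tubular classes were 4.88 ± 0.34 to 6.46 ± 0.26 (edgeR adjusted p = 1.5e-17 and 1.3e-26). Ldhd, a dehydrogenase of D-lactate, was lower in the same 7 classes. Also lower in those 7 classes were Pck1, Fbp1 and G6pc, which encode enzymes of glucose synthesis, and Khk, listed with them, which encodes the kinase of fructose, with PC-like changes of -3.17 to -3.75 on the log2 scale. H2-Aa-led cells were the class in which Pkm, Ldhd and these 4 genes did not pass by edgeR.

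Of 7 tested genes listed under regulators and pyruvate fate, 3 were lower and 0 higher in PC-like cells by edgeR. The shares of all genes were 24.7% and 29.8%. The 3 were Mpc1, a subunit of the mitochondrial pyruvate carrier (-2.02 ± 0.21, edgeR adjusted p = 7.5e-12), the malate dehydrogenase gene Mdh1 (-0.74 ± 0.22) and the pyruvate dehydrogenase subunit gene Pdha1 (-0.55 ± 0.23). Mpc1 averaged 174 CPM in PC-like cells, 727 CPM in TAL-like cells and 606 CPM in PT-like cells. By edgeR it was also called lower in Bst1-led (-2.06), endothelial-like (-1.80), H2-Aa-led (-0.69), IC-like (-0.52) and CNT-like cells (-0.495). Mdh1 was lower in endothelial-like and Bst1-led cells too, and Pdha1 in endothelial-like cells. DCT-like and IC-like cells were higher in Dlat, Pdhb and Got1, and TAL-like and CNT-like cells in Got1 alone. Within PC-like cells, inner medulla over cortex put Mpc2, the other carrier subunit, at 0.371-fold (0.282 to 0.492), Mdh1 at 0.407-fold (0.292 to 0.576) and Pkm at 0.547-fold (0.349 to 0.887). These are chosen members of the lists, whose other ratios are not given. Of all genes compared there, 10.8% lay below equality and 17.0% above. Cells of inner medulla and cortex lay largely in different clusters, whose part in these folds was not tested. Aldoc, another aldolase, gave 36 UMIs for inner medulla against 0 for cortex. With 3 counts set as the cortex floor this is 1.71-fold, a convention and not a confidence bound.

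By Pearson correlation of log2 levels over the 40 class sums, Ldhb was most like Slc25a5 (0.90), which encodes an ADP/ATP carrier, and Cox5a (0.90), Ndufb2 (0.89), Ndufa4 (0.87) and Cox6c (0.87), which encode parts of the respiratory chain. The 7240 genes searched excluded the pathway lists. Ldha was most like Mat2a (0.78), Ctsh (0.74), 2200002D01Rik (0.71), Gnai2 (0.68) and Gstm1 (0.68). These are descriptions over sums that share libraries, depth and composition.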

How the data were processed

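Per the labels' protocols, kidneys were perfused cold, digested by a protease in the cold, and the methanol-fixed cells were stored frozen before Drop-seq. The authors deposited raw UMI counts, by gene symbol and cell barcode. Per the submitters' processing notes, mm9 and Seurat 2.3.1 were used, with no role given; for aligner and annotation nothing is stated. The members and lists were chosen with earlier results of these data known, and named genes were the 10 enzymes, listed pathway genes at 100 CPM or above in a class sum, and the 5 genes most like Ldha and Ldhb.

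Barcodes with at least 200 genes (12121) were kept and 22 doublets marked by scanpy 1.11.5 removed; at 0.182% the caller cannot be taken as having worked. Cells were clustered with leidenalg 0.10.2 (2000 variable genes, 30 components, 15 neighbours, resolution 1.0) without the enzymes or pathway lists. Sums of at least 20 cells and 10000 UMIs were tested with edgeR 4.0.16 (quasi-likelihood, TMM, library block, adjusted p under 0.05). Regional ratios needed 30 cells and 20000 UMIs, save in the Hsd11b2-led cluster alone, and carry exact 95% intervals for counting error only; log2 ratios used CPM plus 10, which understates changes of low genes, and Ldha over Ldhb used UMIs plus 0.5. The edgeR test and the ratio and binomial intervals were checked on simulated data, and the sign-flip test on a fixed set of differences only. Alternatives used DESeq2 1.42.0, other scalings and filters, 500 genes per cell, other class calls, doublet scores, free RNA and left-out libraries.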

Additional observations from a re-analysis of the deposited data

Results flagged for a closer look

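In principal cell-like cells over proximal tubule-like cells of the same library, Ldhb was 0.384-fold in inner medulla, against 1.72-fold in outer medulla, 2.04-fold in cortex, and folds of 2.65 (whole kidney 2) and 3.3 (whole kidney 1). The ratio of Ldha to Ldhb in principal cell-like cells over that in proximal tubule-like cells was 4.17 in inner medulla, against 0.65 in outer medulla, 0.449 in cortex, 0.353 (whole kidney 2) and 0.432 (whole kidney 1). Both drew attention because inner medulla moved one way and the other 4 libraries moved the other way, each beyond counting error. The proximal tubule-like sum of inner medulla came from 91 cells, with 48 Ldhb and 23 Ldha UMIs, and where these cells lay was not tested. With 1 library of inner medulla the difference was not tested, and no group had enough libraries for a search for a sample far from the others.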

How the results depend on the processing

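In class tests, leaving out 1 library gave for members higher or lower than in PT-like cells: TAL-like lower 1 to 3 (3 without inner medulla), DCT-like lower 1 to 2, CNT-like higher 2 to 5 (main 5), PC-like higher 2 to 4, PC-like lower 0 to 1 and Bst1-led higher 0 to 1. With no replicate block, that is with no library term, Bst1-led higher fell to 0, and no other count moved by over 1.5 times. Scaling by total count moved the median of all genes by 0.15 to 0.59 on the log2 scale; IC-like lower became 0, endothelial-like lower 1 and Bst1-led higher 3. DESeq2 gave Bst1-led higher 3 and endothelial-like higher 1. With no filter on low genes, which moved the median by -0.27 to -0.78, TAL-like lower was 2, CNT-like higher 3, PC-like lower 2, IC-like lower 2, endothelial-like lower 8 and Bst1-led higher 0. At 500 genes per cell, TAL-like higher and lower became 0 and 0, PC-like lower 1 and IC-like lower 0. The PC-like class there took in a mixed cluster, with connecting tubule markers among its leading genes, which held all its cortex cells. Named by marker score, CNT-like higher was 3 and endothelial-like lower 0. With the 5% highest doublet scores removed, Bst1-led higher was 0. With free RNA subtracted, PC-like higher was 2, Bst1-led higher 0 and H2-Aa-led lower 4. The last count is read no further: the estimate, taken from PT markers, put free RNA at 94.1% to 100% of UMIs in H2-Aa-led cells.

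In regional ratios over cortex, TMM changed all cells of inner medulla to 0 members above and 5 below, with Eno1 reversed at -0.026, and PT-like cells of inner medulla to 0 above. Doublet removal left 0 above in PC-like cells of inner medulla. The cluster led by Hsd11b2 alone, chosen after seeing the data, left 0 above and 1 below among the enzymes readable over both clusters. The 500-gene filter gave 1 above and 1 below in PC-like cells of outer medulla, against cortex cells of that mixed cluster. Marker scores gave 2 above in TAL-like and 2 above and 0 below in PT-like cells of inner medulla, where Ldhb reversed to 0.078 on the log2 scale. Pgam2 in PT-like cells of outer medulla went from -0.70 to 0.0 with free RNA subtracted.

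The Ldha share of PC-like cells at 500 genes was 72.4% in inner medulla and 7.14% in cortex, where the cells lay in the mixed cluster. In the Hsd11b2-led cluster of the main run alone it was 33.3% in inner medulla. That of TAL-like cells was 1.32% in cortex without high doublet scores, and in outer medulla 10.2% by marker score and 3.35% with free RNA subtracted. The cause of these changes was not tested. Mean log2 differences of Ldha over Ldhb between classes and PT-like cells kept their direction under the alternatives that gave a value. Too few cells remained at 500 genes for inner medulla in PT-like cells, for TAL-like ratios and for several class tests, and no value was obtained there.

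Depth limits what can be read: most enzymes had under 60 UMIs per class and library outside PT-like cells, and regions have 1 library each.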
